A study of Mus musculus with 6 samples.

Results

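The genes described here encode the exchangers and cotransporters that move sodium, chloride, bicarbonate and calcium across kidney cell membranes. They were taken as every gene whose symbol names family Slc4, Slc8, Slc9, Slc12, Slc24 or Slc26 followed by a or b and a number, which gave 50 of the 22040 genes listed. The Slc4 family gave 10 genes, Slc8 gave 4, Slc9 gave 11, Slc12 gave 9, Slc24 gave 5 and Slc26 gave 11. RNA-seq of kidney cortex from C57BL/6 mice supplied their values. The injured group, IR24h, comprised 3 libraries from mice whose renal pedicles were both clamped for 30 min and whose kidneys were taken at 24 h of reperfusion. The reference was 3 libraries labelled sham. All 6 libraries are called WT in their titles, and age, sex and the sham operation were not stated. Nothing in the labels says that the libraries came from separate mice, so p-values measure the spread between these libraries.

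The tubule recovers salt and bicarbonate by a division of labour between segments, and each segment is known by its own exchangers. In the proximal tubule the sodium/proton exchanger NHE3 (Slc9a3) secretes acid into the lumen and the cotransporter NBCe1 (Slc4a4) carries the recovered bicarbonate to the blood. The thick ascending limb takes up sodium, potassium and chloride by NKCC2 (Slc12a1), the target of loop diuretics, and the distal convoluted tubule takes up sodium and chloride by NCC (Slc12a3), the target of thiazides. Intercalated cells of the collecting system secrete acid or base with the help of AE1 (Slc4a1), pendrin (Slc26a4) and AE4 (Slc4a9). Genes were therefore set out by the segment or membrane in which their protein is best known, in 6 lists, and 20 of the 50 genes were in none of them.

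Libraries held 12877237 to 15998975 counts in IR24h and 14339985 to 17061844 in sham over the 21957 genes with a value in every library. Mitochondrial genes took 68.9, 26.2 and 49.2% of the counts in IR24h libraries 1, 2 and 3 and 13.1 to 14.2% in sham libraries. The other genes had 4008001, 11804440 and 6755476 counts in IR24h libraries 1, 2 and 3, against 12455991 to 14639820 in sham libraries. The TMM scaling factors were 0.547, 1.22 and 0.861 in IR24h libraries 1, 2 and 3 and 1.16 to 1.22 in sham libraries. Within the injured group, IR24h library 2 was set apart. Across all tested genes its log2 CPM (counts scaled to library size with edgeR's TMM factors) correlated at r = 0.823 and 0.836 with IR24h 1 and 3 and at 0.848 to 0.859 with the sham libraries. Among the exchanger genes tested it was the highest or the lowest of the 3 IR24h libraries for 31 of 36, the highest for 15 and the lowest for 16. Any 1 of 3 libraries is often the highest or the lowest, and the share over all genes was not counted. The values without it, and with it as the only injured library, are given for each exchanger gene named with its library values whose call turned on it. Marker and partner genes were not followed in this way. With 1 injured library the spread comes from the sham libraries alone, so only log2 fold changes are given for that fit. Markers of injured tubule summed to 6644, 21802 and 16170.2 CPM in IR24h libraries 1, 2 and 3, against 995, 1034 and 1010.3 CPM in sham libraries 1, 2 and 3, with all IR24h libraries far above all sham libraries.

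The count and the FPKM of a gene together imply the gene length that the authors used, and for 6 exchanger genes of 39 that could be compared this length differed between the groups by more than 0.01 on the log2 scale. Over all genes it differed for 13.1% of 14239. For Slc8a1 the implied length was 2934 bases in IR24h and 24032 bases in sham, for Slc4a9 3023 and 11241 bases, and for Slc12a2 6520.4 and 11001 bases. The other three were Slc4a4, Slc26a10 and Slc26a8, with log2 differences, IR24h minus sham, of −0.13, −0.36 and −0.73. The authors' processing thus differed between the groups for these genes, and a change in the RNA cannot be told apart from it by counts alone. The library totals implied by the FPKM exceeded the count totals by 7.90, 8.34 and 9.73% in sham libraries 1, 2 and 3. In IR24h libraries they did so by at most 0.0059%. Processing thus differed between whole groups, and an equal implied length does not show that a gene was processed alike. The effect of taking the implied length into account is given beside those of the 6 genes that were tested.

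Of the 50 genes, 36 passed edgeR's expression filter and were tested, and 3 of these were called higher and 7 lower in IR24h at a Benjamini-Hochberg adjusted p under 0.05 over all 13609 genes tested. The called shares were 8.33% higher and 19.4% lower, where 8.65% of all genes tested were called higher and 7.62% lower. The higher genes were Slc4a11, Slc26a6 and Slc12a4, and the lower ones included Slc8a1, Slc26a4, Slc26a11, Slc9a2, Slc4a9 and Slc9a8. The median log2 fold change of the 36 was −0.26, against 0.049 over all genes. The CPM of the groups did not overlap for 6 genes with IR24h higher and 14 with IR24h lower, which is 16.7% and 38.9% of the 36, where all genes gave 19.9% and 21.7%. Without IR24h library 2, 8 were higher and 14 lower (23.9% and 24.5% of all genes, 48.3% in either direction), and with IR24h library 2 as the only injured library 5 were higher and 16 lower of 39 tested (18.8% and 19.2% of all genes, 38.1% in either direction). Each of the 10 calls was also made in the same direction without IR24h library 2. With IR24h library 2 as the only injured library, each of these genes kept the sign of its log2 fold change. Both fits reuse libraries of the main one, including all sham libraries, so this is no independent evidence for the calls. How many of all called genes kept their call was not counted, so nothing particular to the exchangers is shown. With the implied length taken into account, 3 were higher and 5 lower (11.7% and 7.58% of all genes), the calls of Slc8a1 and Slc4a9 being lost. With library size as the only scaling, 1 was higher and 4 were lower, while 398 of all genes were higher and 611 lower (2.92% and 4.49%, 7.41% in either direction), against 1177 and 1037 (16.3% in either direction) with TMM, and the median of all genes moved to −0.39. In bulk tissue, fewer cells of a type and less RNA per cell cannot be told apart.

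**Figure D1:**
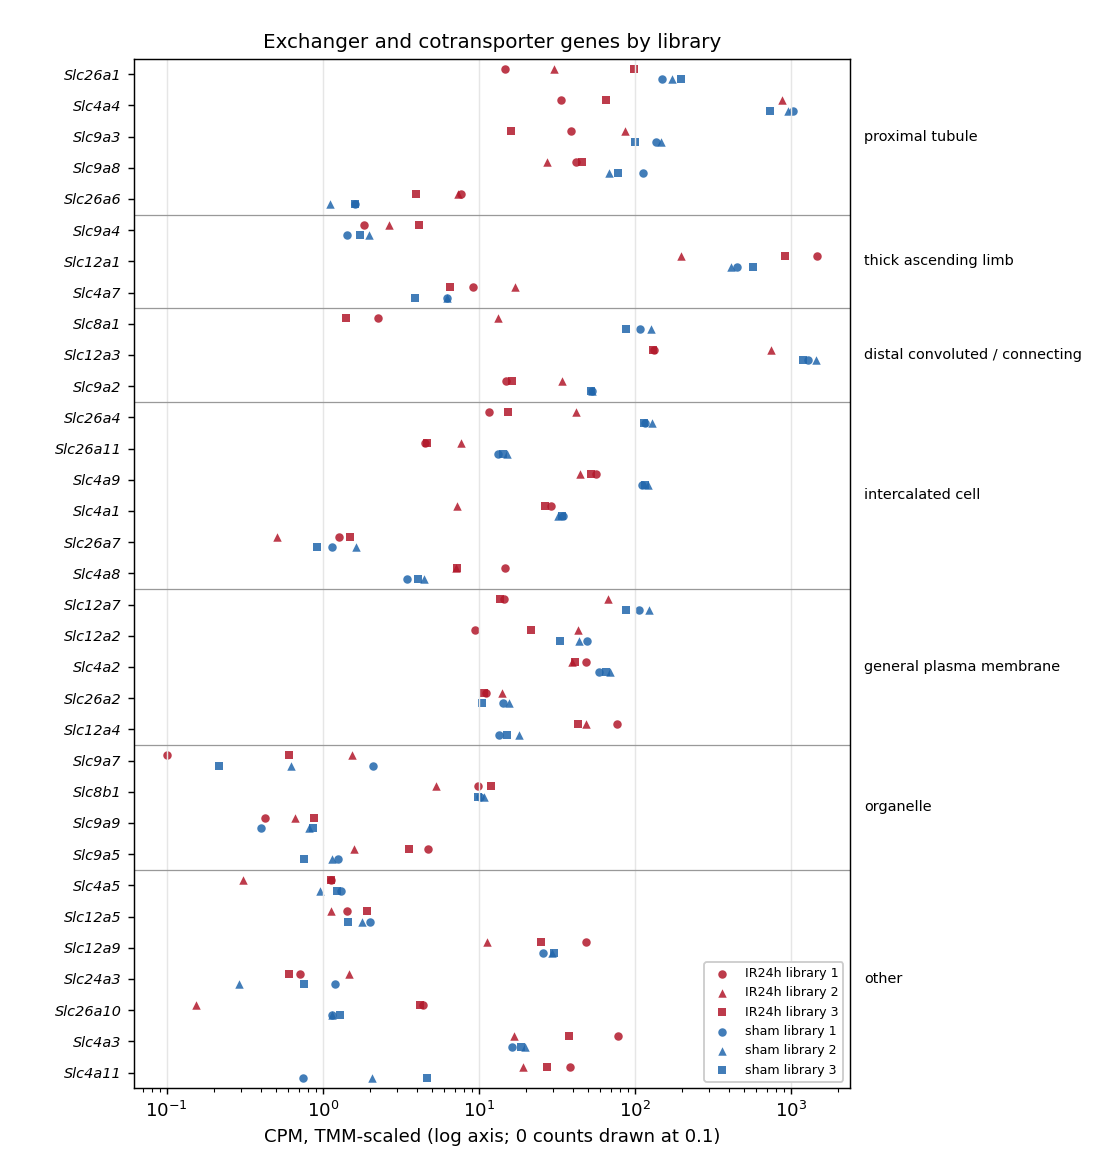
CPM of 33 tested genes in every library (horizontal log axis, 0 counts drawn at 0.1), with IR24h libraries in red above sham libraries in blue and genes grouped by segment. The sham points lie close together for most abundant genes, while IR24h library 2 (red triangle) often lies at one end of the IR24h points, as for Slc4a4 with 868 CPM against 33.4 and 65.4 CPM.

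In the proximal tubule list, 1 gene rose and 2 fell of 6 tested, with a median log2 fold change of −1.46. Slc9a8 was among the lower genes and Slc26a6 was higher, and the pair at the centre of bicarbonate recovery, Slc9a3 and Slc4a4, was not called.

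Slc9a8 (ENSMUSG00000039463; chromosome 2, 167421712 to 167477000, plus strand, GRCm38), which encodes the sodium/proton exchanger NHE8 of the brush border and the Golgi apparatus, had 41.8, 27.2 and 45.9 CPM in IR24h libraries 1, 2 and 3, against 112, 68.2 and 78.3 CPM in sham libraries 1, 2 and 3. Sham library 1 was the highest, and the groups did not overlap. The log2 fold change was −1.17 ± 0.32 (SE; edgeR adjusted p = 0.0441). Leaving out sham 1, 2 or 3 ended the call of Slc9a8 (edgeR adjusted p = 0.177, 0.103 and 0.129), as did leaving out IR24h 1 or 3 (0.0824 and 0.0632) and upper-quartile scaling (0.0631).

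Slc26a6 (ENSMUSG00000023259; chromosome 9, 108853283 to 108913049, plus strand) encodes an apical exchanger of chloride for oxalate, formate and other anions. It had 7.67, 7.31 and 3.93 CPM in IR24h libraries 1, 2 and 3, against 1.599, 1.11 and 1.62 CPM in sham libraries 1, 2 and 3, so that every IR24h library exceeded every sham library at a low level. Its log2 fold change was 2.12 ± 0.41 (SE; edgeR adjusted p = 0.0153). The counts were 54, 143 and 45 in the IR24h libraries and 28, 23 and 30 in the sham libraries. Its neighbours on one side rose as well, Nckipsd by 5.22 (adjusted p = 0.00114) and Ip6k2 by 5.02 (adjusted p = 0.00107), while Uqcrc1 on the other side changed by −1.03 (adjusted p = 0.0668). The part of these neighbours in the rise was not tested. The call of Slc26a6 ended on leaving out sham 1, 2 or 3 (edgeR adjusted p = 0.0746, 0.0902 and 0.0738) and on scaling by library size alone (0.0767).

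The upstream sequences of Slc9a8 and Slc26a6, which moved in opposite directions within this list, are shown as the 250 bases before the RefSeq transcript start (GRCm38.p6; chr2:167421460-167421709, plus strand, and chr9:108853793-108854042, plus strand), with motifs in capitals. The motifs searched on both strands were the TATA box (TATAAA), the CCAAT box (CCAAT), the GC box (GGGCGG), a forkhead site (TGTTTAC), an HNF1 core (GTTAAT), AP-1 (TGANTCA) and a nuclear receptor core (AAGGTCA). Of 32851 such windows over all genes, 12.4% held the TATA box, 33.8% the CCAAT box, 32.7% the GC box, 3.17% the forkhead site, 6.43% the HNF1 core, 6.75% AP-1 and 4.08% the nuclear receptor core. A window was found for 37 of the 50 genes, and in none of the 6 printed here do motifs overlap. The gene coordinates are from GENCODE, whose starts can differ from those of RefSeq. The window of Slc26a6 lies inside its GENCODE gene span.
Slc9a8: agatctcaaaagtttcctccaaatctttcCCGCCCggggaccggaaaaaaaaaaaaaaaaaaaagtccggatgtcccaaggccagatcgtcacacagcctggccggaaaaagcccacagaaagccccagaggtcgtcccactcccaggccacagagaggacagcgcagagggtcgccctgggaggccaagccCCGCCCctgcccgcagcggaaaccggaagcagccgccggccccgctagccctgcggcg
Slc26a6: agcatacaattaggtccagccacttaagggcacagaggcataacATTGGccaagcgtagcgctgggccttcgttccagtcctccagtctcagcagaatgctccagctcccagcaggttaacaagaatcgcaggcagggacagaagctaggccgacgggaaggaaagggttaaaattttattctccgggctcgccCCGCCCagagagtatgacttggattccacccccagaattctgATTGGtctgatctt
The window of Slc9a8 held 2 GC boxes, and that of Slc26a6 held 2 CCAAT boxes and 1 GC box, all of them as the reverse complement.

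Slc4a4 (ENSMUSG00000060961; chromosome 5, 88886818 to 89239653, plus strand) had 33.4, 868 and 65.4 CPM in IR24h libraries 1, 2 and 3, against 1032, 958 and 730.3 CPM in sham libraries 1, 2 and 3. IR24h library 2 lay within the sham range, whereas IR24h libraries 1 and 3 lay far under it. The log2 fold change over all libraries was −1.49 ± 1.08 (SE; edgeR adjusted p = 0.366) and thus not called. Without IR24h 2 it was −4.20 (edgeR adjusted p = 5.05e-04), and with IR24h 2 alone −0.048. With the offset for implied length it was −1.36 ± 1.08 (SE; adjusted p = 0.403). Slc9a3 (ENSMUSG00000036123; chromosome 13, 74121457 to 74169442, plus strand) had 38.8, 86.4 and 16.2 CPM in IR24h libraries 1, 2 and 3, against 135, 146 and 100.1 CPM in sham libraries 1, 2 and 3. The groups did not overlap, IR24h 2 being the nearest to sham, and the log2 fold change was −1.43 ± 0.56 (SE; edgeR adjusted p = 0.119). It was −2.23 (edgeR adjusted p = 0.005002) without IR24h 2 and −0.54 with IR24h 2 alone. Slc26a1, which encodes the basolateral sulfate and oxalate exchanger SAT1, had 14.8, 30.5 and 98.3 CPM in IR24h libraries 1, 2 and 3, against 149.6, 172 and 197 CPM in sham libraries 1, 2 and 3. Here IR24h 3, not IR24h 2, was the nearest to sham, and the log2 fold change of −1.85 ± 0.64 (SE; edgeR adjusted p = 0.08601) was not called. It was −1.61 (edgeR adjusted p = 0.09404) without IR24h 2 and −2.49 with IR24h 2 alone.

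The proximal tubule markers, 10 genes such as Slc34a1, Slc27a2, Lrp2 and Miox, summed to 3023, 4852 and 3999 CPM in IR24h libraries 1, 2 and 3, against 17220.0, 18011 and 17598 CPM in sham libraries 1, 2 and 3. Of them 5 were called lower and 0 higher, with a median log2 fold change of −1.84. The proximal exchangers summed to 162, 1059 and 247 CPM in IR24h libraries 1, 2 and 3, against 1561, 1471 and 1223 CPM in sham libraries 1, 2 and 3. Slc4a4 alone gave 868 of the 1059 CPM in IR24h 2, while Slc26a1 and Slc9a8 lay well under sham in that library.

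In the thick ascending limb list, 0 genes of 3 were called by edgeR and all 3 had positive log2 fold changes, with a median of 0.85. At an unadjusted p under 0.05 20 of the 36 genes passed, against 4645 of all 13609, and Slc4a7 had an unadjusted p of 0.0464. Slc12a1 (ENSMUSG00000027202; chromosome 2, 125152505 to 125230002, plus strand) had 1468, 197 and 913 CPM in IR24h libraries 1, 2 and 3, against 449, 412 and 574 CPM in sham libraries 1, 2 and 3. IR24h 1 and 3 lay above every sham library and IR24h 2 under every one. The log2 fold change was 0.85 ± 0.63 (SE; edgeR adjusted p = 0.379) over all libraries. It was 1.31 (edgeR adjusted p = 0.00797) without IR24h 2, and −1.27 with IR24h 2 alone, so its direction turned with the libraries used. Over all libraries it was 0.092 when scaled by library size alone. Slc4a7, which encodes the basolateral sodium/bicarbonate cotransporter NBCn1, had 9.23, 17.1 and 6.55 CPM in IR24h libraries 1, 2 and 3, against 6.22, 6.25 and 3.88 CPM in sham libraries 1, 2 and 3. Each IR24h library exceeded each sham library, and the log2 fold change was 1.01 ± 0.43 (SE; edgeR adjusted p = 0.1401). It was 0.52 (edgeR adjusted p = 0.219) without IR24h 2 and 1.66 with IR24h 2 alone. Slc9a4, which encodes the basolateral sodium/proton exchanger NHE4, had 1.85, 2.66 and 4.11 CPM in IR24h libraries 1, 2 and 3, against 1.43, 1.97 and 1.73 CPM in sham libraries 1, 2 and 3, overlapping between the groups, with a log2 fold change of 0.75 ± 0.43 (SE; edgeR adjusted p = 0.2504).

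Of the 8 markers of this segment, 2 were lower and 0 higher, with a median log2 fold change of −0.53. Umod, which encodes uromodulin, had 1563, 1243 and 3759 CPM in the IR24h libraries and 1207, 1298 and 1811 CPM in the sham libraries. Named after their values were seen, the lower ones were Egf, the epidermal growth factor gene (−3.71 ± 0.40, adjusted p = 0.00212), and Tmem52b (−2.04 ± 0.45, adjusted p = 0.0235). Of the 6 not called, Umod, Ptger3 and Ppp1r1a had log2 fold changes of 0.61, 1.54 and 1.26, and Cldn10, Cldn16 and Sostdc1 of −0.67, −0.40 and −0.68. Ppp1r1a had 410, 33.5 and 438 CPM in IR24h libraries 1, 2 and 3, against 102, 106 and 159 CPM in sham libraries 1, 2 and 3. As for Slc12a1, IR24h 1 and 3 lay above sham and IR24h 2 under it, which no other marker of the 8 showed. Tmem52b was the highest in IR24h 2 of the IR24h libraries, with 40.6, 104 and 34.4 CPM in IR24h libraries 1, 2 and 3. For Cldn10 and Sostdc1, IR24h 2 lay between IR24h 1 and 3. For Umod, Egf, Cldn16 and Ptger3 it was the lowest of the IR24h libraries. The 8 markers summed to 2238, 1568 and 4627 CPM in IR24h libraries 1, 2 and 3, against 3031, 3097 and 3761 CPM in sham libraries 1, 2 and 3. IR24h 2 was the lowest library of this sum as it was of Slc12a1. Umod alone gave most of the sum in each IR24h library.

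In the distal convoluted and connecting tubule list, 0 genes rose and 2 fell of 3 tested, with a median log2 fold change of −1.96. Slc9a2 and Slc8a1 were lower and Slc12a3, the most abundant of the group, was not called. Slc12a3 (ENSMUSG00000031766; chromosome 8, 94329201 to 94366214, plus strand) had 132, 743 and 129.8 CPM in IR24h libraries 1, 2 and 3, against 1284, 1443 and 1185 CPM in sham libraries 1, 2 and 3. Every IR24h library was under every sham library, and IR24h 2 lay between its group and sham. The log2 fold change was −1.96 ± 0.71 (SE; edgeR adjusted p = 0.0961) over all libraries, −3.32 (adjusted p = 2.13e-04) without IR24h 2 and −0.80 with IR24h 2 alone. DESeq2 and limma-voom called it lower (adjusted p = 0.0177 and 0.0488). Slc9a2 (ENSMUSG00000026062; chromosome 1, 40680574 to 40769273, plus strand), which encodes the apical sodium/proton exchanger NHE2, had 14.9, 33.8 and 16.3 CPM in IR24h libraries 1, 2 and 3, against 53.3, 52.8 and 52.00 CPM in sham libraries 1, 2 and 3. The sham libraries were close together and the groups did not overlap. Its log2 fold change was −1.28 ± 0.36 (SE; edgeR adjusted p = 0.0495), which stood at the threshold. Leaving out sham 1, 2 or 3 ended the call of Slc9a2 (edgeR adjusted p = 0.152, 0.156 and 0.158), as did leaving out IR24h 1 or 3 (0.111 and 0.121), scaling by library size alone (0.138), leaving out mitochondrial genes (0.0533) and using no count filter (0.0523). Its change was −0.63 with IR24h 2 alone.

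Slc8a1 (ENSMUSG00000054640; chromosome 17, 81373105 to 81738377, minus strand) encodes the sodium/calcium exchanger NCX1, the basolateral exit of calcium in this part of the tubule. It had 2.27, 13.2 and 1.398 CPM in IR24h libraries 1, 2 and 3, against 108, 126 and 87.9 CPM in sham libraries 1, 2 and 3, and its log2 fold change was −4.20 ± 0.83 (SE; edgeR adjusted p = 0.0167). The counts were 16, 259 and 16 in the IR24h libraries and 1888, 2616 and 1630 in the sham libraries. The deposited FPKM values of this gene, which use the group's own length and no TMM scaling, were 0.423, 5.52 and 0.4101 in IR24h libraries 1, 2 and 3, against 5.08, 5.89 and 3.87 in sham libraries 1, 2 and 3. On that scale IR24h 2 lay within the sham range, and IR24h 1 and 3 were under it. With an offset for the implied length, the log2 fold change was −1.17 ± 0.74 (SE; adjusted p = 0.297), and the call was lost. Leaving out sham 1, 2 or 3 (edgeR adjusted p = 0.0577, 0.0635 and 0.0628) or IR24h 1 ended it as well (0.0533). Slc9b2, the fourth gene of the list, had 4, 0 and 3 counts in IR24h libraries 1, 2 and 3 and 0 in all sham libraries and was not tested.

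Slc12a1 and Slc12a3 encode related cotransporters of neighbouring segments, and in IR24h libraries 1 and 3 the gene of the loop lay above sham and that of the distal tubule under it. Their upstream windows are printed for comparison, at chr2:125152350-125152599, plus strand, for Slc12a1 and chr8:94328958-94329207, plus strand, for Slc12a3, with the motifs listed above in capitals.
Slc12a1: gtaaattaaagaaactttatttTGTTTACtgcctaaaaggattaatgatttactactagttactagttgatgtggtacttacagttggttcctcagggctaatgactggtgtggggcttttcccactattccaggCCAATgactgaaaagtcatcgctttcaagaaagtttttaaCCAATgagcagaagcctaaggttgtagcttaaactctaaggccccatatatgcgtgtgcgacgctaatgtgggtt
Slc12a3: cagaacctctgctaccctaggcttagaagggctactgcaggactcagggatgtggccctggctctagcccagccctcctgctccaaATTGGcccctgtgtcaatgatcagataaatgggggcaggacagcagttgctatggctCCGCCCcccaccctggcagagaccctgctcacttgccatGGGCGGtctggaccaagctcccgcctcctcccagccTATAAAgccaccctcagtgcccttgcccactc
The window of Slc12a1 held 2 CCAAT boxes and 1 forkhead site and no TATA box. That of Slc12a3 held 1 TATA box, 1 CCAAT box and 2 GC boxes. Both windows end past the GENCODE gene start, which is 125152505 for Slc12a1 and 94329201 for Slc12a3.

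The 6 distal markers gave 1 higher and 2 lower genes with a median log2 fold change of −0.86, and summed to 1511, 1027 and 1241 CPM in IR24h libraries 1, 2 and 3, against 2017, 2102 and 2364 CPM in sham libraries 1, 2 and 3. Most of each sum was Klk1, which was not called (edgeR adjusted p = 0.202). Klk1 had 1435, 809 and 1169 CPM in IR24h libraries 1, 2 and 3, against 1648, 1673 and 2018 CPM in sham libraries 1, 2 and 3. Named after their values were seen, the lower markers were Pvalb, parvalbumin (−3.64 ± 0.50, adjusted p = 0.005098), and Calb1, the calcium-binding protein calbindin (−2.55 ± 0.46, adjusted p = 0.0131). The higher one was Sgms2, a sphingomyelin synthase (4.04 ± 0.57, adjusted p = 0.00567).

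In the intercalated cell list, 0 genes rose and 3 fell of 6 tested, with a median log2 fold change of −0.94. Slc26a4, Slc26a11 and Slc4a9 were lower, and the first of these by the most. Slc26a4 (ENSMUSG00000020651; chromosome 12, 31519827 to 31559969, minus strand), pendrin, exchanges luminal chloride for bicarbonate in type B cells. It had 11.6, 41.7 and 15.4 CPM in IR24h libraries 1, 2 and 3, against 116, 129 and 114 CPM in sham libraries 1, 2 and 3. The groups did not overlap, and the log2 fold change was −2.38 ± 0.49 (SE; edgeR adjusted p = 0.0191). It was −3.15 (edgeR adjusted p = 2.37e-04) without IR24h 2 and −1.51 with IR24h 2 alone. The call of Slc26a4 ended on leaving out sham 1, 2 or 3 (edgeR adjusted p = 0.07098, 0.0787 and 0.0786), on leaving out IR24h 3 (0.0611) and on scaling by library size alone (0.0651).

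Its upstream window, printed because it is the lower gene of the collecting system whose implied length was the same in both groups and whose fall was the largest of the list, lies at chr12:31559985-31560234, minus strand.
Slc26a4: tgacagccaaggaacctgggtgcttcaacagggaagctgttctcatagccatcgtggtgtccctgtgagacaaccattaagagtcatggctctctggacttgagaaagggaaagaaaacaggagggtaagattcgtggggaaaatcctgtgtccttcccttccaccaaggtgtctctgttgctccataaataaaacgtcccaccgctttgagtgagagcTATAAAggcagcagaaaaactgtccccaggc
It held 1 TATA box and none of the other motifs.

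Slc26a11 (ENSMUSG00000039908; chromosome 11, 119355557 to 119381079, plus strand), which encodes a chloride and sulfate transporter, had 4.55, 7.72 and 4.63 CPM in IR24h libraries 1, 2 and 3, against 13.2, 15.1 and 14.3 CPM in sham libraries 1, 2 and 3. The groups did not overlap, and the log2 fold change was −1.32 ± 0.31 (SE; edgeR adjusted p = 0.02897). Leaving out sham 1, 2 or 3 ended the call of Slc26a11 (edgeR adjusted p = 0.104, 0.131 and 0.122), as did leaving out IR24h 1 or 3 (0.0661 and 0.07100) and scaling by library size alone (0.0833). Its value was −0.87 with IR24h 2 alone.

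Slc4a9 (ENSMUSG00000024485; chromosome 18, 36528147 to 36556273, plus strand) encodes AE4, a basolateral carrier of type B cells. By counts it had 56.1, 44.3 and 52.00 CPM in IR24h libraries 1, 2 and 3, against 111, 120.5 and 115 CPM in sham libraries 1, 2 and 3, with narrow groups that did not overlap and a log2 fold change of −1.19 ± 0.23 (SE; edgeR adjusted p = 0.0156). Its deposited FPKM values were 10.1, 17.9 and 14.8 in IR24h libraries 1, 2 and 3, against 11.2, 12.1 and 10.9 in sham libraries 1, 2 and 3. On that scale IR24h 2 and 3 lay above all sham libraries and IR24h 1 under them. The group means thus differed in opposite directions by CPM and by FPKM, which differ in TMM scaling as well as in length. With the offset for the implied length, the log2 fold change was 0.71 ± 0.23 (SE; adjusted p = 0.0657). Whether the RNA of Slc4a9 fell can therefore not be told from the deposited values. The call by counts also ended when sham 1, 2 or 3 was left out (edgeR adjusted p = 0.0817, 0.0916 and 0.0853).

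Slc4a1 (ENSMUSG00000006574; chromosome 11, 102348824 to 102366203, minus strand) encodes AE1, the basolateral exchanger of type A cells and, in a longer form, the band 3 protein of red cells. It had 28.98, 7.26 and 26.6 CPM in IR24h libraries 1, 2 and 3, against 34.5, 32.2 and 34.1 CPM in sham libraries 1, 2 and 3. Every IR24h library was under every sham library, by little in IR24h 1 and 3 and by more in IR24h 2. The log2 fold change was −0.69 ± 0.48 (SE; edgeR adjusted p = 0.346), −0.28 (adjusted p = 0.215) without IR24h 2 and −2.20 with IR24h 2 alone. Red cell markers, 7 genes of which the globin genes Hba-a1, Hbb-bt, Hbb-bs and Hba-a2 were the most abundant, summed to 56.8, 17.3 and 87.7 CPM in IR24h libraries 1, 2 and 3, against 21.2, 27.2 and 64.1 CPM in sham libraries 1, 2 and 3, again lowest in IR24h 2. Of the 5 tested, 0 were called by edgeR. The part of red cells in the Slc4a1 counts was not tested.

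Slc4a8, which encodes the apical sodium-driven chloride/bicarbonate exchanger NDCBE that works with pendrin, had 14.6, 7.16 and 7.25 CPM in IR24h libraries 1, 2 and 3, against 3.48, 4.42 and 4.05 CPM in sham libraries 1, 2 and 3. Its groups did not overlap either, with IR24h the higher, but its log2 fold change of 1.27 ± 0.38 (SE; edgeR adjusted p = 0.0594) was not called. It was 1.44 (edgeR adjusted p = 0.0142) without IR24h 2 and 0.85 with IR24h 2 alone, and DESeq2 called it over all libraries (adjusted p = 0.0136). Slc26a7, which encodes a chloride and anion transporter of acid-secreting cells, had at most 1.63 CPM in any library and a log2 fold change of −0.22 ± 0.55 (SE; edgeR adjusted p = 0.804). The 8 intercalated cell markers gave 0 higher and 3 lower genes with a median log2 fold change of −0.47, and summed to 319, 179 and 289 CPM in IR24h libraries 1, 2 and 3, against 331, 344 and 367 CPM in sham libraries 1, 2 and 3. Named after their values were seen, the lower ones were Hmx2, a transcription factor (−2.45 ± 0.45, adjusted p = 0.0133), Insrr, an alkali-sensing receptor (−1.58 ± 0.35, adjusted p = 0.02397), and Oxgr1, the oxoglutarate receptor (−1.76 ± 0.47, adjusted p = 0.0428). The proton pump subunit gene Atp6v1b1 had 117, 50.5 and 73.7 CPM in the IR24h libraries and 98.2, 98.7 and 119 CPM in the sham libraries. It was not called (−0.39, edgeR adjusted p = 0.447). Of the others not called, Atp6v0d2, Atp6v1g3 and Aqp6 had log2 fold changes of 0.34, 0.34 and 0.32, and Foxi1 of −0.55. Every IR24h library exceeded every sham library for Atp6v0d2. The intercalated exchangers summed to 117, 109 and 107 CPM in IR24h libraries 1, 2 and 3, against 279, 303 and 283 CPM in sham libraries 1, 2 and 3. These were far under sham in all IR24h libraries, whereas the markers' sum was under sham by much in IR24h 2 and by less in IR24h 1 and 3. The unequal lengths of Slc4a9 enter the exchangers' sum.

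**Figure D2:**
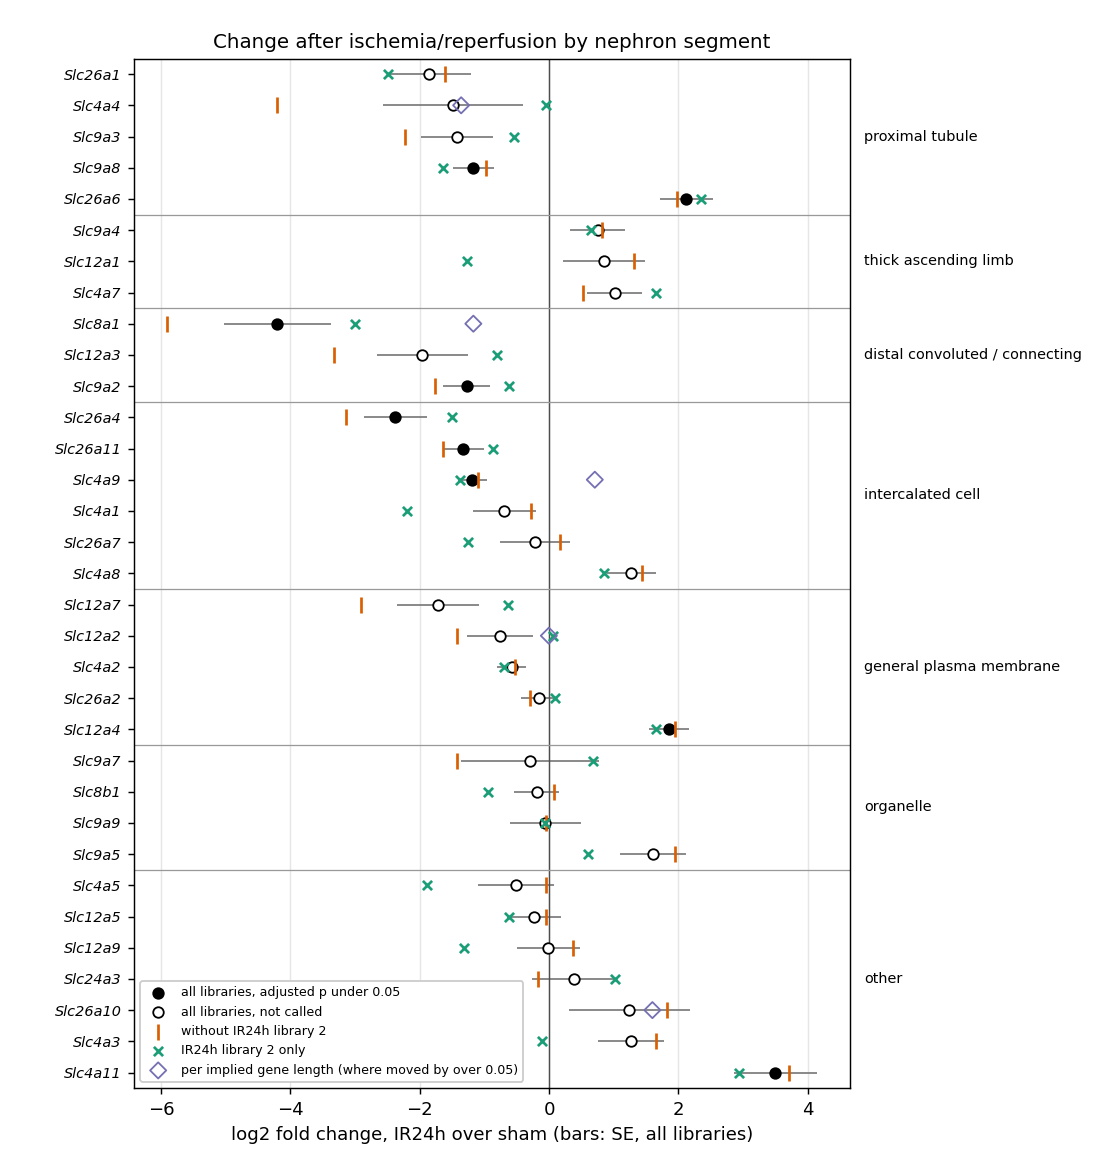
Log2 fold change of IR24h over sham (horizontal axis, bars SE over all libraries) for 33 tested genes by segment, with filled points called at adjusted p under 0.05, ticks without IR24h library 2, crosses with IR24h library 2 alone and diamonds with an offset for the implied gene length. Slc26a6 and Slc4a11 keep their side of 0 under each, Slc12a1 turns from 1.31 without IR24h 2 to −1.27 with IR24h 2 alone, and Slc4a9 turns from −1.19 to 0.71 with the offset.

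Of the genes found on the plasma membrane of many cell types, 1 rose and 0 fell of 6 tested, with a median log2 fold change of −0.37. Slc12a4 (ENSMUSG00000017765; chromosome 8, 105943590 to 105966097, minus strand) encodes KCC1, a potassium/chloride cotransporter of cell volume control. It had 76.99, 48.6 and 43.3 CPM in IR24h libraries 1, 2 and 3, against 13.5, 18.03 and 15.2 CPM in sham libraries 1, 2 and 3. Every IR24h library was at least 43.3 CPM and every sham library at most 18.0 CPM, and the log2 fold change was 1.85 ± 0.31 (SE; edgeR adjusted p = 0.00989). It was 1.94 (edgeR adjusted p = 0.00229) without IR24h 2 and 1.65 with IR24h 2 alone. Its neighbours on both sides were higher too, Lcat by 3.72 (adjusted p = 0.0332) and Dpep2 by 3.02 (adjusted p = 0.0251), whereas the next ones, Psmb10 and Ddx28, were not called (0.46 and −0.47). Their part in the rise was not tested. The call of Slc12a4 ended on leaving out sham 1, 2 or 3 (edgeR adjusted p = 0.0663, 0.0542 and 0.0639) and on scaling by library size alone (0.0763). Its upstream window is shown as that of the potassium/chloride cotransporter gene that rose, at chr8:105966116-105966365, minus strand.
Slc12a4: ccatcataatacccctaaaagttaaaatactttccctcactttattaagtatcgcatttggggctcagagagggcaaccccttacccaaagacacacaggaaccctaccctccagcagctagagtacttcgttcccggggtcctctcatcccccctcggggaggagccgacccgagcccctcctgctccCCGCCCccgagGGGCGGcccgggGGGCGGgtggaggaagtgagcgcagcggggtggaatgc
It held 3 GC boxes and none of the other motifs.

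Slc12a7, which encodes KCC4, another potassium/chloride cotransporter, had 14.5, 67.5 and 13.7 CPM in IR24h libraries 1, 2 and 3, against 106, 123 and 87.5 CPM in sham libraries 1, 2 and 3. The groups did not overlap, but its log2 fold change of −1.72 ± 0.63 (SE; edgeR adjusted p = 0.102) was called only without IR24h 2 among the analyses that left out libraries, at −2.91 (adjusted p = 3.17e-04). It was −0.63 with IR24h 2 alone. Slc12a2, which encodes the basolateral sodium-potassium-chloride cotransporter NKCC1, had 9.38, 43.1 and 21.6 CPM in IR24h libraries 1, 2 and 3, against 49.2, 43.7 and 33.1 CPM in sham libraries 1, 2 and 3, with IR24h 2 inside the sham range. Its log2 fold change was −0.76 ± 0.51 (SE; edgeR adjusted p = 0.3301) by counts and −0.0032 ± 0.51 (SE; adjusted p = 0.997) with the offset for the implied length. By counts it was −1.43 (edgeR adjusted p = 0.0206) without IR24h 2 and 0.053 with IR24h 2 alone. Slc4a2, which encodes the chloride/bicarbonate exchanger AE2, had 48.4, 39.5 and 41.3 CPM in IR24h libraries 1, 2 and 3, against 58.9, 68.7 and 65.4 CPM in sham libraries 1, 2 and 3. Its IR24h values were close together and all under sham, with a log2 fold change of −0.58 ± 0.23 (SE; edgeR adjusted p = 0.119). It was −0.53 (edgeR adjusted p = 0.0455) without IR24h 2 and −0.69 with IR24h 2 alone. Slc26a2, a sulfate transporter gene, had 11.1, 14.2 and 10.8 CPM in the IR24h libraries and 14.2, 15.6 and 10.5 CPM in the sham libraries and a log2 fold change of −0.16 ± 0.28 (SE; edgeR adjusted p = 0.717).

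Of the exchanger genes of organelles, 0 of 5 were called by edgeR, with a median log2 fold change of −0.19. Slc9a5, which encodes NHE5, known mainly from neurons, had 4.69, 1.58 and 3.58 CPM in IR24h libraries 1, 2 and 3, against 1.26, 1.15 and 0.755 CPM in sham libraries 1, 2 and 3, higher in each IR24h library, at 1.61 ± 0.52 (SE; edgeR adjusted p = 0.0724). It was 1.95 (edgeR adjusted p = 0.00657) without IR24h 2 and 0.60 with IR24h 2 alone, and DESeq2 called it over all libraries (adjusted p = 0.02102). Slc8b1, which encodes the mitochondrial sodium/calcium exchanger NCLX, had 9.801, 5.32 and 11.97 CPM in IR24h libraries 1, 2 and 3, against 10.2, 10.7 and 9.92 CPM in sham libraries 1, 2 and 3, with overlapping groups and a log2 fold change of −0.19 ± 0.35 (SE; edgeR adjusted p = 0.728). Its value was 0.082 (edgeR adjusted p = 0.769) without IR24h 2 and −0.94 with IR24h 2 alone. Slc9a7 of the trans-Golgi network and Slc9a9 of endosomes had at most 2.11 CPM in any library and were not called (adjusted p = 0.867 and 0.952).

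Of the 20 genes in none of the lists, 7 were tested and 1 rose. Slc4a11 (ENSMUSG00000074796; chromosome 2, 130684113 to 130697519, minus strand) had the largest rise of all 36. It encodes a membrane transporter of protons and ammonia that is best known from the corneal endothelium. It had 38.5, 19.1 and 27.2 CPM in IR24h libraries 1, 2 and 3, against 0.742, 2.07 and 4.64 CPM in sham libraries 1, 2 and 3. Every IR24h library was at least 19.1 CPM and every sham library at most 4.64 CPM, although the sham libraries spread widely. The log2 fold change was 3.50 ± 0.65 (SE; edgeR adjusted p = 0.0137), 3.71 (adjusted p = 0.00374) without IR24h 2 and 2.94 with IR24h 2 alone. Its tested neighbours Itpa and 4930402H24Rik had log2 fold changes of −0.097 and −0.41 and were not called, and its implied length was the same in both groups. Of the 16 alternatives, 1 ended the call, that without sham 2 (edgeR adjusted p = 0.0759).

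The other tested genes outside the lists were not called. Slc4a3, which encodes AE3, a chloride/bicarbonate exchanger of heart and brain, had 77.6, 16.9 and 37.8 CPM in IR24h libraries 1, 2 and 3, against 16.3, 19.8 and 18.7 CPM in sham libraries 1, 2 and 3. IR24h 1 and 3 exceeded every sham library and IR24h 2 lay inside the sham range, with a log2 fold change of 1.27 ± 0.51 (SE; edgeR adjusted p = 0.127) over all libraries. It was 1.65 (edgeR adjusted p = 0.00568) without IR24h 2 and −0.10 with IR24h 2 alone. Slc26a10 had 4.403, 0.153 and 4.195 CPM in the IR24h libraries and 1.14, 1.15 and 1.29 CPM in the sham libraries, with IR24h 1 and 3 above sham and IR24h 2 under it. Over all libraries its log2 fold change of 1.24 ± 0.94 (SE; edgeR adjusted p = 0.387) was not called. It was 1.83 (edgeR adjusted p = 0.004099) without IR24h 2 and −2.90, opposite in direction, with IR24h 2 alone. With the offset for its unequal lengths the fitted value was 1.60 ± 0.94 (SE; adjusted p = 0.262), and exons of B4galnt1 on the other strand cover 17.8% of its own. Other tested genes with such overlap included Slc9a4 (16.75%, Gm37435), Slc4a2 (13.7%, Fastk) and Slc12a4 (8.44%, Gm16156). Its part in the counts was not tested. Slc12a9 had 48.6, 11.3 and 25.1 CPM in the IR24h libraries and 25.9, 29.2 and 30.1 CPM in the sham libraries, with IR24h 1 above, and IR24h 2 and 3 under, the sham range. Its log2 fold change was −0.012 ± 0.48 (SE; edgeR adjusted p = 0.988), and it was 0.36 (adjusted p = 0.336) without IR24h 2 and −1.32 with IR24h 2 alone. Slc4a5, which encodes the sodium/bicarbonate cotransporter NBCe2, the neuronal chloride transporter gene Slc12a5 and the potassium-dependent sodium/calcium exchanger gene Slc24a3 had at most 1.998 CPM in any library.

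The 14 genes that did not pass the filter had at most 18 counts in any library. Slc24a1, Slc26a5 and Slc9b1 had 0 counts in all 6 libraries. Slc4a10, Slc8a2, Slc8a3, Slc9b2, Slc12a8, Slc24a2, Slc24a4, Slc24a5 and Slc26a8 had at most 16. Slc26a9 had 18 counts in IR24h 2 and 0 in each of the other 5 libraries. With IR24h 2 as the only injured library, Slc26a9 and Slc26a8 passed the filter, with log2 fold changes of 7.16 and −6.62 that rest on these few counts. Slc26a3, an intestinal chloride/bicarbonate exchanger gene, had 18 counts in IR24h 1, 2 in sham 3 and 0 in the other four. Fat, adrenal and urothelial markers, 8 genes, summed to 8.66, 43.8 and 10.6 CPM in IR24h libraries 1, 2 and 3, against 2.85, 3.17 and 4.91 CPM in sham libraries 1, 2 and 3, with the fat cell genes Adipoq at 16.0 CPM and Plin1 at 12.6 CPM in IR24h 2. The part of such tissue in the counts of Slc26a9 was not tested.

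Levels were ordered as CPM per kilobase of exon in the GENCODE annotation, and 3 genes led in both groups. Slc12a1 had 149 ± 111 in IR24h and 82.99 ± 14.7 in sham (SD, n = 3 each), which gave it place 1 in IR24h and place 3 in sham. Slc12a3 had 30.1 ± 31.8 in IR24h and 117 ± 11.7 in sham, at places 2 and 1. Slc4a4 had 29.8 ± 43.7 in IR24h and 83.9 ± 14.6 in sham, at places 3 and 2. In sham, Slc4a4 and Slc12a1 did not differ beyond their spread. In IR24h, the spread of Slc12a3 and of Slc4a4 was larger than their means. Slc12a4 was at place 4 in IR24h and at place 20 in sham, with 13.2 ± 4.24 CPM per kilobase in IR24h against 3.63 ± 0.538 in sham. Slc8a1 stood at place 30 in IR24h and at place 16 in sham by counts, a placing that rests on its unequal lengths.

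**Figure D3:**
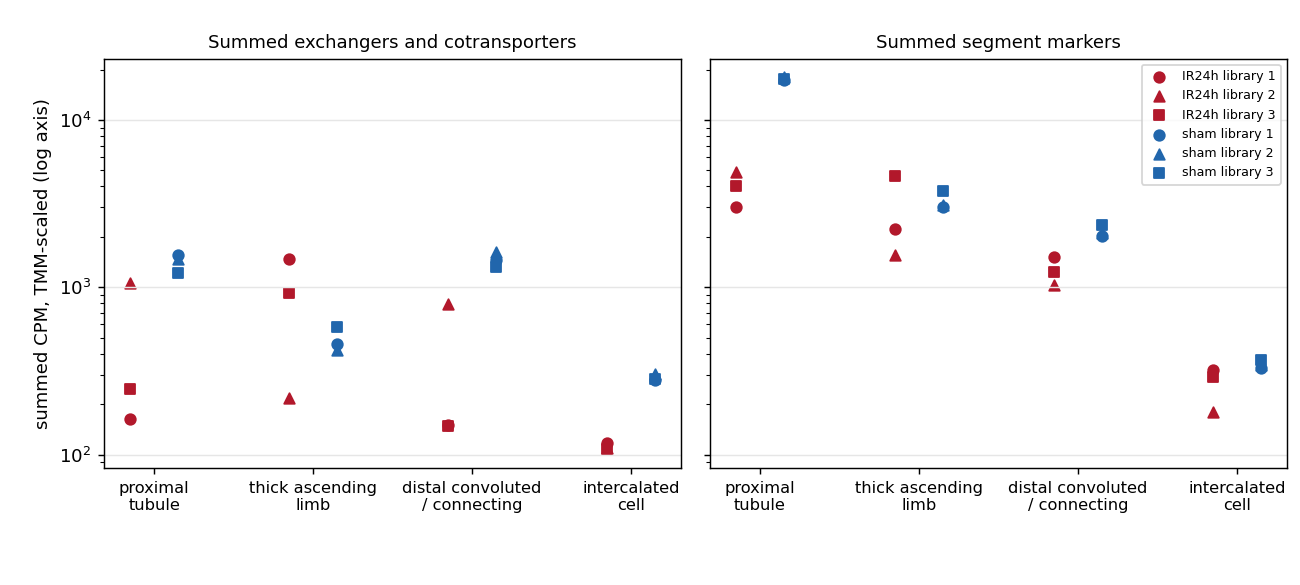
Summed CPM (log axis) of the exchanger and cotransporter genes (left) and of the segment markers (right) for 4 segments, with IR24h libraries in red left of sham libraries in blue and symbols giving the library number. Distal exchangers sum to 149 and 148 CPM in IR24h 1 and 3 and to 789.6 CPM in IR24h 2, all under the sham libraries, and the thick ascending limb exchangers of IR24h 1 and 3 lie above sham. Klk1 gives most of each distal marker sum.

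Between segments, the balance of the transporters was read from ratios of counts within a library, which no library scaling touches. The 7 pairs were chosen with earlier results of these data known, so groups that do not overlap for a pair are no independent evidence. With 3 libraries against 3, an exact permutation test (2-sided, 20 assignments) cannot go below p = 0.1, so no pair could reach the threshold. The log2 ratio of Slc12a1 over Slc12a3 was 3.48, −1.91 and 2.81 in IR24h libraries 1, 2 and 3, against −1.52, −1.81 and −1.05 in sham libraries 1, 2 and 3. In IR24h 1 and 3 the loop cotransporter's counts exceeded the distal one's, and in IR24h 2 and all sham libraries they did not (difference of means 2.92, exact permutation p = 0.4, 0.4 adjusted over the pairs). The ratio of Slc9a3 over Slc4a4 was 0.22, −3.33 and −2.01 in IR24h libraries 1, 2 and 3, against −2.93, −2.72 and −2.87 in sham libraries 1, 2 and 3. It was higher than sham in IR24h 1 and 3 and lower in IR24h 2 (exact permutation p = 0.4). The ratio of Slc4a1 over Slc26a4, the type A against the type B exchanger, was 1.31, −2.52 and 0.79 in IR24h libraries 1, 2 and 3, against −1.75, −2.005 and −1.74 in sham libraries 1, 2 and 3, with the same split of the libraries (exact permutation p = 0.4). The ratio of Slc12a2 over Slc12a1 was −7.28, −2.19 and −5.40 in IR24h libraries 1, 2 and 3, against −3.19, −3.24 and −4.12 in sham libraries 1, 2 and 3, with IR24h 2 above all sham libraries and IR24h 1 and 3 under them (exact permutation p = 0.4). Slc12a2 has unequal lengths, and the difference of means was −1.44 by counts and −0.69 by FPKM (exact permutation p = 0.7 for the second). The Slc9a3 over Slc4a4 difference, with unequal lengths of Slc4a4, was 1.13 by counts and 0.997 by FPKM.

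The groups did not overlap for 3 pairs, each at an exact permutation p of 0.1, the smallest possible, and 0.233 adjusted over the pairs. The ratio of Slc26a6 over Slc26a1, both of the proximal tubule, was −0.94, −2.06 and −4.63 in IR24h libraries 1, 2 and 3, against −6.52, −7.25 and −6.90 in sham libraries 1, 2 and 3. That of Slc26a4 over Slc4a9 was −2.26, −0.087 and −1.75 in IR24h libraries 1, 2 and 3, against 0.06, 0.10 and −0.016 in sham libraries 1, 2 and 3. That of Slc12a3 over Slc8a1 was 5.81, 5.81 and 6.49 in IR24h libraries 1, 2 and 3, against 3.57, 3.52 and 3.75 in sham libraries 1, 2 and 3. The last turned with the length, the ratios of the deposited FPKM values being 3.65, 3.60 and 4.33 in IR24h libraries 1, 2 and 3, against 4.40, 4.35 and 4.58 in sham libraries 1, 2 and 3. The difference of means was 2.42 by counts and −0.58 by FPKM. For Slc26a4 over Slc4a9 it was −1.42 by counts and −3.31 by FPKM.

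**Figure D4:**
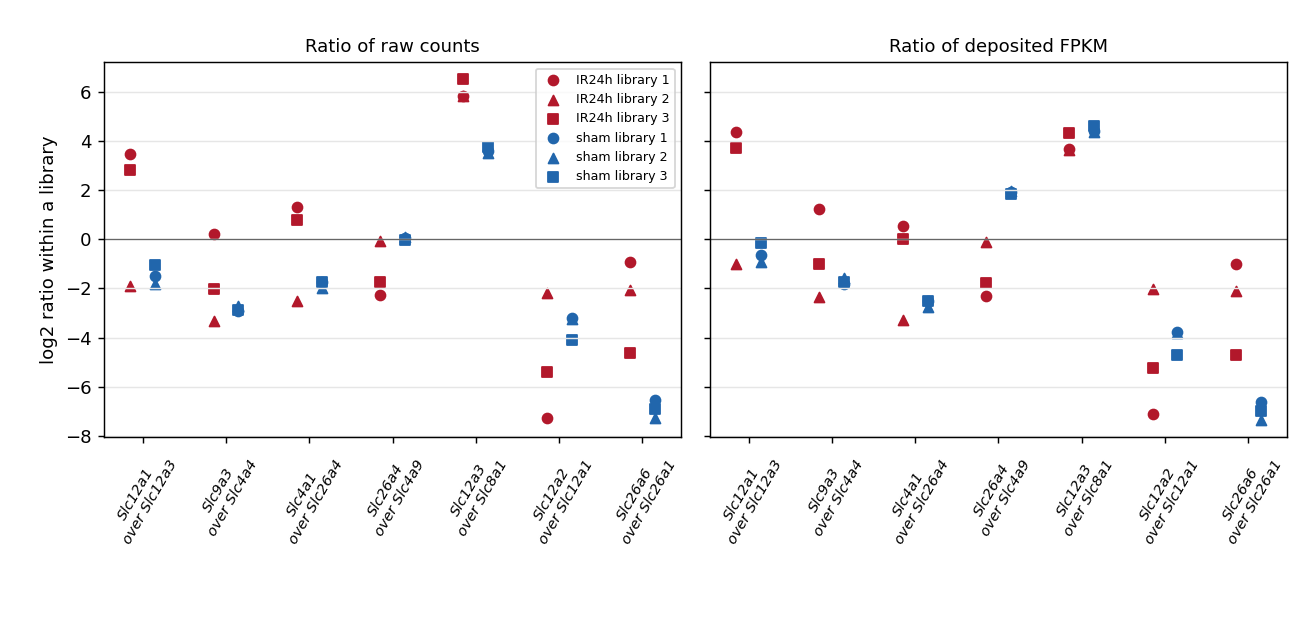
Log2 ratio of paired genes within each library, from raw counts (left) and from the deposited FPKM values (right), with IR24h libraries in red left of sham libraries in blue. IR24h 2 (red triangle) lies on the sham side of IR24h 1 and 3 for Slc12a1 over Slc12a3 (−1.91 against 3.48 and 2.81), and Slc12a3 over Slc8a1 changes side between the panels.

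Partner genes that work with these transporters were described from 5 lists. Of 10 tested scaffold, carbonic anhydrase and sodium pump genes of the proximal tubule, 0 rose and 2 fell, with a median log2 fold change of −1.04. The lower ones encode the membrane-bound carbonic anhydrases that feed NHE3 and NBCe1 with their substrates. Car14 had 10.8, 6.799 and 20.01 CPM in IR24h libraries 1, 2 and 3, against 145, 186 and 175 CPM in sham libraries 1, 2 and 3 (−3.75 ± 0.44, adjusted p = 0.00315). Car4 had 40.5, 16.7 and 47.3 CPM in IR24h libraries 1, 2 and 3, against 169, 154 and 182 CPM in sham libraries 1, 2 and 3 (−2.28 ± 0.41, adjusted p = 0.0124). Both had groups that did not overlap.

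Of 10 tested genes of the WNK and SPAK kinases, which switch NKCC2 and NCC on by phosphorylation, 1 rose and 2 fell, with a median of 0.13. Stk39, which encodes SPAK, had 46.4, 36.5 and 45.8 CPM in IR24h libraries 1, 2 and 3, against 22.8, 18.4 and 24.4 CPM in sham libraries 1, 2 and 3 and rose by 0.97 ± 0.25, adjusted p = 0.0368. Klhl3, which encodes the adaptor that marks WNK kinases for degradation, had 22.6, 16.3 and 18.2 CPM in IR24h libraries 1, 2 and 3, against 73.3, 72.5 and 52.1 CPM in sham libraries 1, 2 and 3 (−1.80 ± 0.27, adjusted p = 0.00697), and Sgk1, an aldosterone-induced kinase, had 10.9, 32.9 and 34.1 CPM in IR24h libraries 1, 2 and 3, against 70.3, 89.04 and 74.3 CPM in sham libraries 1, 2 and 3 (−1.58 ± 0.43, adjusted p = 0.0463). Of 6 tested chloride and potassium channel genes of the loop and distal tubule, 0 were called by edgeR, with a median of −0.56. Of 4 distal calcium genes 1 fell, Calb1, given above. Of 7 intercalated cell partners 1 fell, Rhbg, which encodes a basolateral ammonia transporter, with 19.9, 13.8 and 17.2 CPM in IR24h libraries 1, 2 and 3, against 42.1, 48.03 and 60.3 CPM in sham libraries 1, 2 and 3 (−1.57 ± 0.27, adjusted p = 0.0114).

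Markers of other cells moved with the groups too, and their part in the results above was not tested. Of the 6 tested leukocyte markers 4 rose and 0 fell, with a sum of 109.9, 66.04 and 126 CPM in IR24h libraries 1, 2 and 3, against 27.98, 26.6 and 23.1 CPM in sham libraries 1, 2 and 3. Of the 6 fibroblast and muscle markers 5 rose and 0 fell, with a sum of 1538, 358 and 845 CPM in IR24h libraries 1, 2 and 3, against 112, 122 and 110.3 CPM in sham libraries 1, 2 and 3. Endothelial markers gave 0 higher and 1 lower of 5 and podocyte markers 0 of 5 in either direction. Principal cell markers gave 0 higher and 1 lower of 7 and summed to 325, 198 and 729 CPM in IR24h libraries 1, 2 and 3, against 489.9, 569.6 and 601 CPM in sham libraries 1, 2 and 3. In leukocyte, fibroblast and endothelial sums alike, IR24h 2 was the lowest IR24h library.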

How the data were processed

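RNA-seq of renal cortex gave 3 IR24h and 3 sham libraries. Per the file headers, the authors deposited raw counts per gene and FPKM values. Per the submitters' processing notes, CASAVA 1.8 and TopHat2 2.0.6 were used and mm10 and GRCh38 are named as builds. Counter, annotation and strandedness: not given in the sources used here. Genes without sham values, 83, were left out, and 21880 of the 21957 others matched GENCODE M21 (GRCm38), which gave coordinates. Implied lengths came from genes with at least 5 counts.

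Counts were filtered and TMM-scaled in edgeR 4.0.16 (R 4.3.3) and tested by its quasi-likelihood test, 2-sided, adjusted over 13609 genes, with a common biological coefficient of variation of 0.394. The SE of a log2 fold change was derived from the F statistic. Alternatives used limma 3.58.1 and DESeq2 1.42.0. The script was tested on simulated data. Ratios added 0.5 counts. Upstream sequences are from RefSeq (GRCm38.p6). Python 3.11.15 made the tables and figures. Same-numbered libraries deviated with correlations of −0.11, 0.12 and 0.23, so numbers were not taken to pair libraries.

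The genes, lists and pairs were chosen with earlier results of these data known. Some genes are not reported here by name. The others of the rule are accounted for, with library values for listed genes that passed the filter and other called ones. Each called partner gene is named. Markers are given by counts and sums. Offsets for implied length and FPKM ratios were chosen after seeing the data.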

Additional observations from a re-analysis of the deposited data

How the results depend on the processing

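Most single-gene values kept their direction and their side of the threshold, and most ratios kept their direction, but the calls were less stable. Each called exchanger named here lost its call under at least 1 of 16 alternatives, from 1 for Slc4a11 to 9 for Slc9a2. For all of them but Slc4a11, leaving out any 1 sham library ended the call. Scaling by library size alone gave 398 higher and 611 lower genes, 1 and 4 of them exchangers, DESeq2 gave 2073 and 1695 (5 and 11), and IR24h 2 as the only injured library gave 2690 and 2749 (5 and 16). With the offset for implied length the counts were 1586 and 1032 (3 and 5). Leaving out 1 library gave 246 to 3297 higher and 196 to 3382 lower genes, and 0 to 8 higher and 1 to 14 lower exchangers, the largest counts being without IR24h 2. Where a group keeps 1 library, it is assumed to vary like the other group. Library numbers were not taken to pair libraries, and the replicate block gave 814 higher and 843 lower genes (3 and 9 exchangers), with the adjusted p (edgeR) of Slc9a2 at 0.0504 and of Slc9a8 at 0.0515 and with Slc12a3 (0.0363), Slc12a7 (0.0331), Slc26a1 (0.0322) and Slc9a3 (0.0436) called lower. By arithmetic the block cannot change the difference of means of a paired-gene ratio, so it tests nothing there. DESeq2 also called Slc12a7 (0.0289) and Slc26a1 (0.0174) lower, and limma-voom Slc26a1 (0.0468). The log2 ratio of Slc12a3 over Slc8a1 turned to −0.58 by FPKM.

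Log2 fold changes that turned sign with IR24h 2 alone were those of Slc12a1 (−1.27), Slc12a2 (0.053), Slc26a10 (−2.90), Slc26a2 (0.087), Slc4a3 (−0.10) and Slc9a7 (0.68). Slc12a9 turned with median-ratio factors (0.0046), upper-quartile scaling (0.11), no mitochondrial genes (0.0074) and DESeq2 (0.0069), and ranged from −0.65 to 0.36 with 1 library left out. Slc9a9 turned with upper-quartile scaling (0.033) and limma-voom (0.012) and ranged from −0.34 to 0.14, Slc26a10 turned with limma-voom (−0.15) and Slc4a9 with the length offset (0.71). Ranges with 1 library left out spanned 0 for Slc24a3 (−0.18 to 0.87), Slc26a7 (−0.56 to 0.17), Slc8b1 (−0.46 to 0.082) and Slc9a7 (−1.43 to 0.86). The cause was not tested. Depth limits the 14 untested genes, whose counts were at most 18.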
